A study of Mus musculus with 12 samples.

Results

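Interferon-stimulated genes were followed in NKT (natural killer T) cells, a T cell lineage whose receptor binds lipid antigens on CD1d. The set holds 37 genes of the 23284 listed in each of the deposited tables, chosen by name. All 37 were found in both tables under the symbols listed. Interferons are cytokines that induce an antiviral state. Type I interferons bind the receptor of Ifnar1 and Ifnar2, whose kinases JAK1 and TYK2 activate STAT proteins. With IRF9 these form a complex that binds the interferon-stimulated response element (ISRE) of target promoters. Interferon gamma, a cytokine that NKT cells themselves secrete when activated, binds the receptor of Ifngr1 and Ifngr2. Through JAK1 and JAK2 it leads to binding of gamma-activated sites (GAS), and it is a strong inducer of the immunity-related GTPases (IRG) and guanylate-binding proteins (GBP).

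RNA of sorted C57BL/6 mouse cells was sequenced in 12 libraries, 3 in each of 4 groups. The cKO groups, from thymus and from liver, came from mice in which an E8III-Cre transgene deletes a floxed Rag2 gene at the CD4+CD8+ (DP) thymocyte stage. Rag2 is needed to assemble antigen receptor genes, so NKT cells of these mice are read by the study as arising before that stage, at the double-negative (DN) stage. The YFP+ groups, from the same tissues, came from mice with the same Cre and a Rosa26 reporter behind a floxed stop, and stand for NKT cells of DP origin. Cells of all groups were sorted as live CD4- CD8- CD45R- cells with T cell receptor beta that bound a CD1d dimer, and all mice carried the Cre. The labels give neither ages nor sexes, and they do not say whether the 3 libraries of a group came from separate mice. All p-values then measure the spread between these libraries, which may be technical. Origin and mouse line cannot be told apart, because each origin came from its own line. For the 6 liver libraries the titles and the column headers name a mouse line, and the description field names the other. Groups follow the titles, and every liver direction below is mirrored if the descriptions hold.

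Values are FPKM (fragments mapped to a transcript, divided by its length and by the library's mapped total), and read depth is unknown. A library summed to 187828 to 194655 FPKM in thymus cKO, 198790 to 212688 in thymus YFP+, 450429 to 465304 in liver cKO and 509267 to 558042 in liver YFP+. The tissues were normalised in separate tables, so levels are compared within a tissue. Rag2 was at 0 or 0.015 FPKM in all 6 thymus libraries, and so checked no label there. In the liver it was at 0 in the 3 cKO libraries, against 0.985 to 1.365 FPKM in the YFP+ libraries. Rag1 ran the same way there, at 0.146 to 0.223 FPKM in cKO and 1.33 to 1.96 FPKM in YFP+ libraries. The Rag2 values therefore do not by themselves check the liver labels. RNA of the T cell markers was abundant throughout, for instance Cd3e at 292 to 295 FPKM in cKO and 348 to 367 FPKM in YFP+ libraries of the thymus and 1018 to 1048 FPKM in cKO and 1022 to 1069 FPKM in YFP+ libraries of the liver. Zbtb16, the transcription factor that defines the NKT lineage, was at 3.15 to 4.27 FPKM in cKO and 11 to 13.5 FPKM in YFP+ libraries of the thymus and at 9.08 to 10.9 FPKM in cKO and 8.91 to 13.4 FPKM in YFP+ libraries of the liver. In bulk RNA of sorted cells, fewer cells of a type and less RNA per cell cannot be told apart.

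The promoters of the set were searched for the letters through which the pathway is known to act. Of the 37 members, 25 had a promoter in the RefSeq table used here (build GRCm38.p6), with 30 windows of 300 bases around gene starts in all. The core of the ISRE, GAAANNGAA on either strand, was present in 16 of the 30 windows (53.3%), against 8.56% of all 32851 windows used. The GAS core, TTCNNNGAA, was in 7 windows (23.3%), against 8.30% of all windows. There were 28 ISRE and 7 GAS core matches, and 1 of each overlapped the other. The stretches of 180 bases before the start of 4 members are given as examples with more than 1 ISRE core, and these genes are described below. Other members, such as Ifit1, had more than 1 core as well. Ifit3 and Isg15 varied widely between thymus cKO libraries, Irgm1 was lower in liver cKO, and Oas3 was higher in liver cKO. These are not separate patterns, since all 37 members varied in the same order between thymus cKO libraries. A link between cores and RNA levels was not tested. Capitals mark ISRE cores, and runs longer than 9 letters are overlapping cores. They lie at chr19:34583349-34583528 (plus strand), chr4:156200819-156200998 (minus strand), chr11:48871421-48871600 (minus strand) and chr5:120777660-120777839 (minus strand) of GRCm38.p6.
Ifit3: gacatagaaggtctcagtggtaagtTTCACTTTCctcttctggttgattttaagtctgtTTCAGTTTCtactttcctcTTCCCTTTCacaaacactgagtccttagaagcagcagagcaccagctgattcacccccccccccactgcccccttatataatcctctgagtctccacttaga
Isg15: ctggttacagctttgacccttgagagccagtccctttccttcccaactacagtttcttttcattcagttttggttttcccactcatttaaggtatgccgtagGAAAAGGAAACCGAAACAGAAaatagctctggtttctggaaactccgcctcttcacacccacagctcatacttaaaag
Irgm1: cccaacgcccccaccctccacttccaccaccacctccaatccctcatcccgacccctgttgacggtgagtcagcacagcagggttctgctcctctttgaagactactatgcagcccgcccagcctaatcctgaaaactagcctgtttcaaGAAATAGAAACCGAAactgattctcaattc
Oas3: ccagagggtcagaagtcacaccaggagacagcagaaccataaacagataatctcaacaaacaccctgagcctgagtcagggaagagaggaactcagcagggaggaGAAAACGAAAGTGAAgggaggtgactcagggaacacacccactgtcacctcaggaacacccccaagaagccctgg
The cores of Ifit3 began 155, 121 and 102 bases before the start, on the strand opposite to the gene. Those of Isg15 began 78, 72 and 66 bases before it, those of Irgm1 30 and 24 bases and those of Oas3 75 and 69 bases. Isg20 had no ISRE core in any of its 3 windows and a GAS core in 1. A match is a description of letters and not of a bound site.

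In the thymus, the 3 cKO libraries differed from each other in every member, and in the same order. Replicate 1 was highest, replicate 3 lay between and replicate 2 was lowest of the cKO libraries in all 37 genes. Among all 9097 tested genes (mean of at least 1 FPKM over the 6 thymus libraries), 2881 (31.7%) had that order. Relative to the YFP+ mean, members were at a median of 1.93 times in cKO replicate 1 (range 1.0 to 4.7), 0.387 times in replicate 2 (0.134 to 0.878) and 0.701 times in replicate 3 (0.392 to 1.21). Replicate 1 was the highest of the 6 thymus libraries in 34 members, against 11.7% of all tested genes. In the other 3, Isg20, Irgm2 and Irf9, YFP+ replicate 3 was highest as deposited. With libraries rescaled by median ratios cKO replicate 1 was highest in all 37, against 18.1% of all tested genes. Replicate 2 was the lowest of the 6 in 36 members, against 40.5% of all tested genes. Replicate 3 lay below all YFP+ libraries in 26 members (70.3%), against 60.0% of all tested genes above 0 in every cKO library, and above all of them in Rsad2 and Bst2, against 13.7%.

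**Figure D1:**
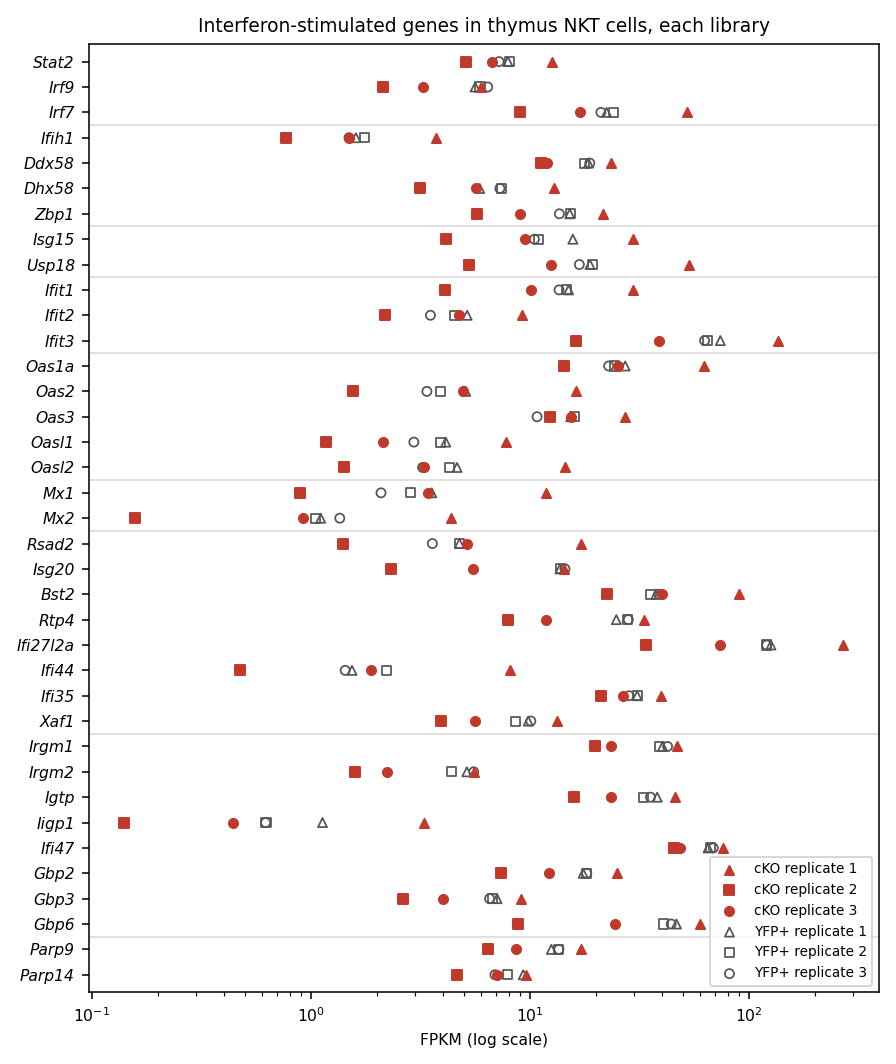
FPKM (log axis) of the 37 interferon-stimulated genes in each thymus library, filled red for cKO and open grey for YFP+, grouped by role. The red symbols run in the order of replicate 2, replicate 3 and replicate 1 in every row, and the open symbols mostly sit between them.

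The YFP+ libraries were close to each other. The coefficient of variation of a member had a median of 73.8% over the thymus cKO libraries (30.1 to 135%) and of 7.17% over the YFP+ libraries (n = 3 each). Over all tested genes the medians were 10.4% in cKO and 8.90% in YFP+. The ratio of cKO replicate 1 to cKO replicate 2 had a median of 4.19 over the members (1.68 to 27.9) and 1.07 over all tested genes. In the liver, where no such spread was seen, the coefficient of variation of the 37 members had a median of 7.46% in cKO and 9.22% in YFP+. Rescaling each library by its median ratio left the thymus values at 71.8% in cKO and 9.17% in YFP+.

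Each member was tested with limma on log2(FPKM + 1), fitted on all tested genes of a tissue with Benjamini-Hochberg adjustment at 0.05. Log2 fold changes (cKO over YFP+, ± SE) are given relative to that of the median gene, which was -0.16 in the thymus, -0.19 there without cKO replicate 1, and -0.11 in the liver. Each SE is on that scale, and the pseudocount of 1 understates changes of low genes. The test itself is of the unshifted value. With all 6 thymus libraries, 0 of 37 members passed, against 2.64% of all genes called higher and 13.1% called lower. With each library rescaled by its median ratio to the others, 0 of 37 passed as well, and over all genes the split was 367 higher and 422 lower, against 240 higher and 1189 lower as deposited. Weighting libraries by their fit to the group (array weights) called 6 members as lower, Irf9, Isg20, Rtp4, Irgm1, Irgm2 and Ifi47. Over all 9097 genes that setting called 2383 lower and 415 higher, so the share of members called was not above that of all genes. Before adjustment 2 members, Irf9 and Isg20, had a p under 0.05, and the lowest adjusted p over the set was 0.112, for Irf9. The median log2 fold change was -0.05, with 20 members below 0 and 17 above. A call missed here does not show that the groups were alike, since the 3 cKO libraries span both sides of the YFP+ libraries.

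Without cKO replicate 1, 20 of the 35 members still tested (57.1%) passed as lower in cKO and 0 as higher, against 22.6% and 3.88% of the 9101 genes tested. The median log2 fold change was then -0.62 with 34 of 35 below 0, and Oas3 alone was above (0.18 ± 0.17, adjusted p = 0.975 by limma). Mx2 and Iigp1 were then under the tested mean. With libraries also rescaled by median ratios, a choice made after seeing the data, 17 of 35 were lower and 0 higher, against 8.53% and 6.08% of all genes. Leaving out the highest library lowers the cKO mean by construction, and that library was singled out for its values. Without cKO replicate 2 the set's median was 0.35, without replicate 3 it was 0.08, and 0 members passed in either case.

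**Figure D2:**
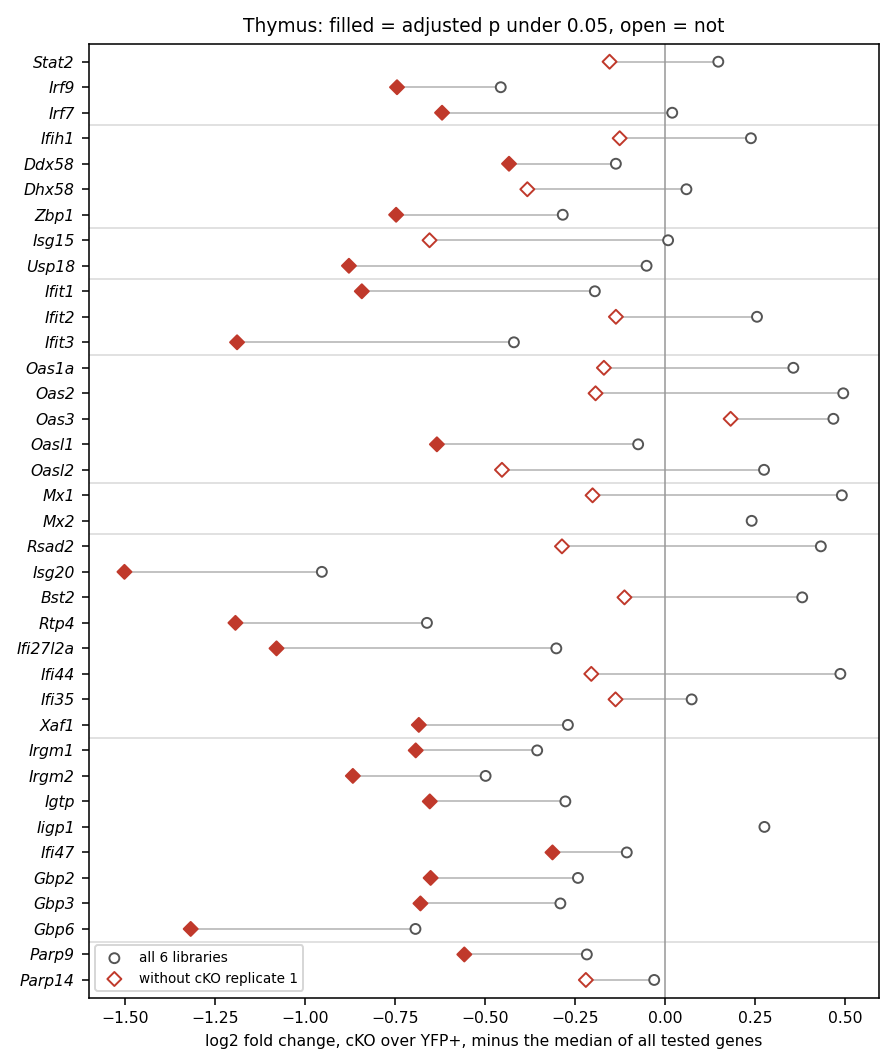
Log2 fold change of each member in the thymus (cKO over YFP+, minus the median of all tested genes) with all 6 libraries (circles) and without cKO replicate 1 (diamonds), where filled symbols passed at an adjusted p under 0.05. Every circle is open, 20 diamonds are filled and lie left of 0, and Mx2 and Iigp1 have no diamond because they were then not tested.

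Among the transcription factors, values follow in the order of replicates 1, 2 and 3. Irf7, which drives transcription of the type I interferon genes, was at 52.4, 9.02 and 17 FPKM in the cKO libraries, against 22.4, 24.2 and 21.1 FPKM in the YFP+ libraries. Irf9, the DNA-binding subunit of the complex with STAT2, was at 6.0, 2.15 and 3.24 FPKM in the cKO libraries, against 5.63, 5.92 and 6.42 FPKM in the YFP+ libraries. Stat2, its partner, ranged over 5.14 to 12.6 FPKM in cKO and 7.24 to 8.1 FPKM in YFP+ libraries. For Irf7 the first cKO library was more than every YFP+ library and the other cKO libraries were less than all of them, whereas for Irf9 the first lay among the YFP+ libraries as deposited. Irf7 had a log2 fold change of 0.02 ± 0.50 over all libraries (adjusted p = 0.843, limma) and -0.62 ± 0.21 without cKO replicate 1 (0.0245). For Irf9 it was -0.46 ± 0.25 over all libraries and -0.75 ± 0.14 without that library (adjusted p = 0.00318, limma). Stat2 passed in neither fit.

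Of the 4 sensors of foreign nucleic acid, Ddx58 encodes RIG-I, a helicase that detects viral RNA, and was at 23.5, 11.2 and 11.9 FPKM in the cKO libraries, against 18.5, 17.8 and 18.8 FPKM in the YFP+ libraries. Zbp1, which recognises Z-form nucleic acids and can start necroptosis, was at 21.6, 5.72 and 9.0 FPKM in the cKO libraries, against 15.2, 15.3 and 13.6 FPKM in the YFP+ libraries. In both genes cKO replicate 1 lay above all YFP+ libraries and the other cKO libraries below them. Without replicate 1 Ddx58 (-0.43 ± 0.08, adjusted p = 0.00176, limma) and Zbp1 (-0.75 ± 0.16, 0.00518) passed as lower. Ifih1 (MDA5), a helicase for long RNA, spanned 0.77 to 3.72 FPKM in cKO and 1.49 to 1.76 FPKM in YFP+ libraries, and Dhx58 (LGP2), a helper of the other helicases, spanned 3.14 to 12.9 FPKM in cKO and 5.9 to 7.39 FPKM in YFP+ libraries. Neither passed with or without that library.

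Isg15 and Usp18 form a conjugation system in which the ubiquitin-like ISG15 is attached to proteins and USP18 removes it and also damps the type I receptor. Isg15 was at 29.7, 4.14 and 9.53 FPKM in the cKO libraries, against 15.7, 11 and 10.5 FPKM in the YFP+ libraries. Usp18 was at 53, 5.29 and 12.5 FPKM in the cKO libraries, against 18.8, 19.3 and 16.8 FPKM in the YFP+ libraries. In both, cKO replicate 1 was well above and the other cKO libraries were below every YFP+ library. Usp18 passed as lower without replicate 1 (-0.88 ± 0.26, adjusted p = 0.021, limma), and Isg15 did not (-0.66 ± 0.28, 0.0556).

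The IFIT proteins bind RNA that lacks the host's cap methylation. Ifit3 was at 135, 16.3 and 38.7 FPKM in the cKO libraries, against 74.1, 65 and 62.8 FPKM in the YFP+ libraries. Ifit1 was at 29.5, 4.12 and 10.1 FPKM in the cKO libraries, against 15, 14.7 and 13.6 FPKM in the YFP+ libraries. Both genes had the pattern of Usp18, with cKO replicate 1 above and the others below all YFP+ libraries. Without replicate 1 Ifit3 (-1.19 ± 0.28, adjusted p = 0.0111, limma) and Ifit1 (-0.84 ± 0.27, 0.0247) were lower. Ifit2 spanned 2.19 to 9.18 FPKM in cKO and 3.52 to 5.17 FPKM in YFP+ libraries and did not pass.

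OAS enzymes make short oligoadenylates that activate RNase L, an activity that the OAS-like Oasl1 lacks. Oasl1, known in mice to restrain translation of Irf7, was at 7.81, 1.18 and 2.15 FPKM in the cKO libraries, against 4.13, 3.9 and 2.95 FPKM in the YFP+ libraries. Oasl2 was at 14.4, 1.42 and 3.3 FPKM in the cKO libraries, against 4.65, 4.31 and 3.24 FPKM in the YFP+ libraries, and was among the 5 members with the largest ratio of cKO replicate 1 to the mean of the other cKO libraries (6.11). Oas3 was at 27.2, 12.3 and 15.4 FPKM in the cKO libraries, against 15.4, 16 and 10.8 FPKM in the YFP+ libraries. In Oas3 cKO replicate 3 lay within the YFP+ libraries and the lowest of the 6 was YFP+ replicate 3, the only member in which that was so. Oasl1 was the only OAS member to pass without replicate 1 (-0.63 ± 0.18, adjusted p = 0.0142, limma). Oas1a spanned 14.4 to 62.2 FPKM in cKO and 22.9 to 27.2 FPKM in YFP+ libraries, and Oas2 spanned 1.56 to 16.2 FPKM in cKO and 3.39 to 5.1 FPKM in YFP+ libraries.

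MX proteins are dynamin-like GTPases that block viral replication. Mx2 was at 4.38, 0.157 and 0.917 FPKM in the cKO libraries, against 1.11, 1.05 and 1.36 FPKM in the YFP+ libraries, and its ratio of replicate 1 to the mean of the other cKO libraries was 8.17. Mx1 spanned 0.889 to 11.8 FPKM in cKO and 2.09 to 3.57 FPKM in YFP+ libraries. Iigp1, an IRG GTPase that attacks the vacuole of parasites, and Ifi44, an antiviral protein, had the other large ratios. Iigp1 was at 3.3, 0.141 and 0.441 FPKM in the cKO libraries, against 1.13, 0.624 and 0.622 FPKM in the YFP+ libraries, a ratio of 11.3. Ifi44 was at 8.15, 0.477 and 1.88 FPKM in the cKO libraries, against 1.54, 2.22 and 1.44 FPKM in the YFP+ libraries, a ratio of 6.92, and Usp18 above had one of 5.98. In each of these genes replicate 1 lay above all YFP+ libraries and replicate 2 below them.

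Of the other antiviral and induced proteins, Ifi27l2a, a small membrane protein, had the highest FPKM of the set. It was at 269.7, 33.8 and 74.1 FPKM in the cKO libraries, against 126, 119.9 and 121 FPKM in the YFP+ libraries. Isg20, an exonuclease that degrades RNA, was at 14.3, 2.33 and 5.49 FPKM in the cKO libraries, against 13.7, 13.9 and 14.5 FPKM in the YFP+ libraries. Here, as deposited, cKO replicate 1 lay among the YFP+ libraries, and the other cKO libraries were far below them. Rtp4, a chaperone of G protein-coupled receptors, was at 33.1, 7.92 and 11.9 FPKM in the cKO libraries, against 24.8, 28 and 28.2 FPKM in the YFP+ libraries. Xaf1, which promotes apoptosis by opposing XIAP, was at 13.3, 3.94 and 5.64 FPKM in the cKO libraries, against 9.83, 8.62 and 10.1 FPKM in the YFP+ libraries. In Ifi27l2a, Rtp4 and Xaf1 replicate 1 lay above and the other cKO libraries below all YFP+ libraries. Without replicate 1 these 4 genes were lower, with Isg20 at -1.50 ± 0.23 (adjusted p = 0.00218, limma) and Rtp4 at -1.19 ± 0.15 (0.00063). Ifi27l2a was at -1.08 ± 0.26 (0.0108) and Xaf1 at -0.68 ± 0.14 (0.00411). Rsad2 (viperin), Bst2 (tetherin), Ifi44 and Ifi35 did not pass. Bst2, which holds budding virus at the membrane, spanned 22.5 to 90.4 FPKM in cKO and 35.8 to 38.7 FPKM in YFP+ libraries, Rsad2 spanned 1.4 to 17.1 FPKM in cKO and 3.59 to 4.79 FPKM in YFP+ libraries and Ifi35 spanned 21.2 to 39.5 FPKM in cKO and 28.4 to 31.1 FPKM in YFP+ libraries.

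The IRG and GBP GTPases guard against intracellular pathogens and are the members most tied to interferon gamma. Without cKO replicate 1, all 7 that were tested passed as lower, against 22.6% of all genes. Irgm1, a regulator of the other IRG proteins and of autophagy, was at 47, 19.8 and 23.6 FPKM in the cKO libraries, against 40.3, 39.3 and 42.5 FPKM in the YFP+ libraries. Igtp, also a regulator of the family, was at 45.9, 16 and 23.4 FPKM in the cKO libraries, against 38.1, 33.1 and 35.5 FPKM in the YFP+ libraries. Irgm2 was at 5.54, 1.59 and 2.22 FPKM in the cKO libraries, against 5.16, 4.37 and 5.54 FPKM in the YFP+ libraries. In Irgm1 and Igtp cKO replicate 1 was above all YFP+ libraries, in Irgm2 it lay among them as deposited, and the other cKO libraries were below them in all 3. Ifi47 was at 76.4, 45.5 and 48.3 FPKM in the cKO libraries, against 65.1, 66.7 and 68.8 FPKM in the YFP+ libraries. Gbp2, a guanylate-binding protein that coats vacuoles, was at 25, 7.4 and 12.3 FPKM in the cKO libraries, against 17.5, 18.1 and 18.2 FPKM in the YFP+ libraries. Gbp3, a relative of it, was at 9.07, 2.63 and 4.01 FPKM in the cKO libraries, against 7.08, 6.75 and 6.55 FPKM in the YFP+ libraries. In each of these 3 replicate 1 was the highest of the 6 libraries and replicates 2 and 3 were below all YFP+ libraries. Gbp6 was at 59.9, 8.79 and 24.4 FPKM in the cKO libraries, against 46.7, 40.9 and 44.2 FPKM in the YFP+ libraries. The smallest of the 7 changes was that of Ifi47 (-0.31 ± 0.07, adjusted p = 0.00275, limma) and the largest that of Gbp6 (-1.32 ± 0.32, 0.0126). Irgm1 had the lowest adjusted p of the set (-0.69 ± 0.09, 0.000604). Irgm2 changed by -0.87 (0.00166), Igtp by -0.65 (0.00581), Gbp2 by -0.65 (0.01) and Gbp3 by -0.68 (0.00451).

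The PARP members belong to a family of enzymes that attach ADP-ribose to proteins, and they take part in interferon signalling. Parp9 was at 17.1, 6.42 and 8.66 FPKM in the cKO libraries, against 12.5, 13.6 and 13.6 FPKM in the YFP+ libraries. Parp14 was at 9.58, 4.67 and 7.1 FPKM in the cKO libraries, against 9.33, 7.92 and 6.93 FPKM in the YFP+ libraries. Parp9 passed as lower without replicate 1 (-0.56 ± 0.12, adjusted p = 0.00461, limma), and Parp14, whose cKO replicate 3 lay within the YFP+ libraries, did not (-0.22 ± 0.17, 0.0985).

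Other RNA differed between the same thymus cKO libraries. The 9 T and NKT cell markers summed to 956 to 1016 FPKM in cKO and 1092 to 1218 FPKM in YFP+ libraries. All 36 tested genes of a list of 38 further interferon-induced genes also had the order of replicates 1, 3 and 2, with medians of 1.37, 0.517 and 0.750 times the YFP+ mean in replicates 1, 2 and 3. Heat shock and immediate early genes, which respond to cell handling and to activation, ran the other way. In all 12, replicate 1 was the lowest of the cKO libraries, and the medians were 1.81, 4.34 and 4.34 times the YFP+ mean. In the test 9 of the 12 were higher in cKO with all libraries and 11 without replicate 1, against 2.64% and 3.88% of all genes. Hspa1a, a heat shock chaperone, was at 90.7, 743 and 751 FPKM in the cKO libraries, against 6.04, 6.18 and 4.79 FPKM in the YFP+ libraries, with every cKO library above every YFP+ library. The 6 erythroid markers summed to 108, 0.179 and 14.3 FPKM in cKO replicates 1, 2 and 3, against 0.152 to 0.851 FPKM in YFP+ libraries, in the order of the members. Markers of other cells summed to little in every thymus library, at most 2.27 FPKM for 10 myeloid markers, 2.02 for 5 B cell markers, 0.556 for 6 hepatocyte markers and 3.86 for 6 DP thymocyte markers. The 7 plasmacytoid dendritic cell markers summed to 4.07 to 5.51 FPKM in cKO and 8.31 to 10.0 FPKM in YFP+ libraries, most of it Pacsin1, and Siglech was at most 0.154 FPKM. The part of stress, activation or erythroid RNA in the order of the members was not tested.

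**Figure D3:**
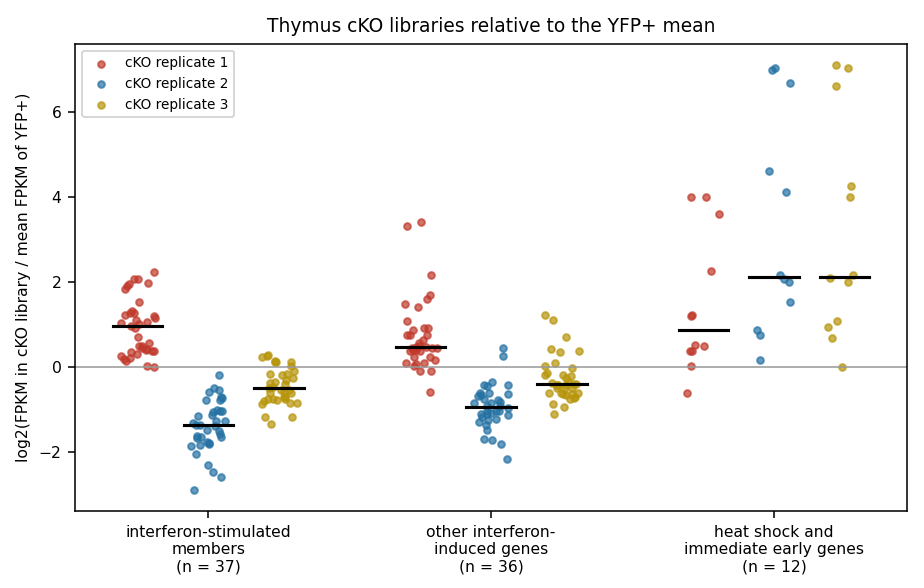
Log2 ratio of FPKM in each thymus cKO library to the YFP+ mean, 1 point per gene, for the 37 members, 36 other interferon-induced genes and 12 heat shock and immediate early genes, with black bars at the medians. The first and second groups of genes are highest in replicate 1 and lowest in replicate 2, and the third is lowest in replicate 1.

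Of the cytokines that start the pathway, Ifng, which encodes interferon gamma, was at 41, 71.8 and 63.2 FPKM in the cKO libraries, against 18.7, 24.3 and 11.5 FPKM in the YFP+ libraries. All cKO libraries lay above all YFP+ libraries, and Ifng rose in cKO (1.82 ± 0.28, adjusted p = 0.00824, limma). Its order within cKO, with replicate 2 highest and replicate 1 lowest, was the reverse of that of the members. The 8 type I and lambda interferon genes of the list did not exceed 0.437 FPKM in any library. Of 65 tested genes of the 6 pathway lists 15.4% were called in the thymus, 3 higher and 7 lower. That share is close to that of all genes (2.64% higher and 13.1% lower). Among 8 tested receptor and kinase genes 0 rose and 3 fell. Ifngr1, a chain of the interferon gamma receptor, was at 119, 134 and 133 FPKM in the cKO libraries, against 176, 164 and 183 FPKM in the YFP+ libraries and fell (-0.27 ± 0.08, 0.0101). Jak1 (-0.09, adjusted p = 0.0418) and Jak2 (-0.17, 0.0481), the receptor kinases, fell less. With median-ratio scaling the call of Ifngr1 was lost (adjusted p = 0.0591, limma). Those of Jak1 and Jak2 were lost with that scaling (0.318 and 0.193), without cKO replicate 2 (0.121 and 0.13) and without cKO replicate 3 (0.0863 and 0.125). Ifngr2, the other chain, was listed at 0.166 to 0.275 FPKM in cKO and 0.505 to 0.915 FPKM in YFP+ libraries of the thymus, under the tested mean. Ifnar1 (0.00, 0.224) and Ifnar2 (0.07, 0.421) did not pass.

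Of 5 other tested IRF genes 1 fell in the thymus, Irf8, at 1.7, 1.28 and 1.21 FPKM in the cKO libraries, against 3.02, 2.4 and 3.29 FPKM in the YFP+ libraries (-0.54 ± 0.13, adjusted p = 0.012, limma). Irf1, an early target of interferon gamma, did not pass (-0.05 ± 0.11, 0.198), with 11.6 to 15.5 FPKM in cKO and 14.3 to 15.7 FPKM in YFP+ libraries. Of 6 negative regulators 2 fell, the phosphatases Ptpn2 (-0.20, 0.046) and Ptpn6 (-0.19, 0.0347). Both calls were lost with median-ratio scaling (0.155 and 0.165, limma), without cKO replicate 2 (0.129 and 0.0913) and without cKO replicate 3 (0.102 and 0.102). Of 9 tested sensing adaptors and kinases 0 passed. Of the 36 tested other interferon-induced genes 2 rose and 1 fell, against 2.64% and 13.1% of all genes. Ly6c2, a surface marker of activated T cells, was at 1612, 824 and 985 FPKM in the cKO libraries, against 626, 599 and 598 FPKM in the YFP+ libraries and rose (1.01 ± 0.21, 0.0341). Epsti1 also rose (0.50 ± 0.08, 0.0344), and Ifitm2, which blocks viral entry, fell (-0.79 ± 0.16, 0.00932). Without cKO replicate 3 the calls of Ly6c2 and Epsti1 were lost (adjusted p = 0.0709 and 0.0969). Without cKO replicate 1, 24 of the 35 of that list still tested were lower and 2 higher, against 22.6% and 3.88% of all genes.

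In the liver the libraries of a group were close to each other, and a minority of the members passed. Of 36 tested members (Mx2 was under the tested mean), 10 (27.8%) were lower in cKO and 1 was higher, Oas3, against 19.7% of all 9591 tested genes lower and 7.49% higher. The share of members that were lower is near that of all genes. Lack of overlap between the groups is given below for single genes as a description only. Its share over all genes was not counted. The median log2 fold change of the members was 0.01, with 18 below 0, and 14 had an unadjusted p under 0.05. With libraries rescaled by median ratios, 3 members were higher and 4 lower, against 10.5% and 11% of all genes, and 5 of those 7 were among the 11. The count was 6 of 36 without cKO replicate 1, 7 of 36 without cKO replicate 3 and 6 of 35 without YFP+ replicate 2. Over all genes it was 1623 of 9612, 1771 of 9614 and 1539 of 9559 in these settings. With array weights 15 of 36 members were called, 4 higher and 11 lower, against 1096 higher and 2844 lower of 9591 genes. In each of these settings the share of members was near that of all genes. Irf9, Rtp4, Ifi27l2a and Igtp as lower and Oas3 as higher passed under all 11 alternative settings run on the liver.

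Ifi27l2a was at 243, 258 and 268 FPKM in the cKO libraries, against 572, 518 and 442 FPKM in the YFP+ libraries of the liver. Rtp4 was at 50.1, 51 and 45.4 FPKM in the cKO libraries, against 79.9, 72.6 and 67.4 FPKM in the YFP+ libraries. In both, every cKO library was below every YFP+ library, with a log2 fold change of -0.88 ± 0.10 for Ifi27l2a (adjusted p = 0.000486, limma) and -0.47 ± 0.09 for Rtp4 (0.0035). Isg20 was at 17, 17 and 20.9 FPKM in the cKO libraries, against 28.4, 23.6 and 22.8 FPKM in the YFP+ libraries, again without overlap (-0.32 ± 0.12, 0.0331). Irf9 was at 6.0, 5.77 and 5.53 FPKM in the cKO libraries, against 8.39, 8.83 and 8.61 FPKM in the YFP+ libraries, and fell by 0.40 ± 0.10 (0.0086). Zbp1 was at 12.6, 12.6 and 12.4 FPKM in the cKO libraries, against 14.8, 15.6 and 16.2 FPKM in the YFP+ libraries, the smallest change of the members that passed (-0.18 ± 0.09, 0.0441). Neither Irf9 nor Zbp1 overlapped between the groups.

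Of 8 tested IRG and GBP GTPases, 5 were lower in liver cKO, against 19.7% of all genes, and with median-ratio scaling 1 was, Igtp, against 11% of all genes. Igtp was at 49.5, 47.9 and 54 FPKM in the cKO libraries, against 74.4, 70.3 and 74.5 FPKM in the YFP+ libraries. Irgm1 was at 60.1, 56.1 and 57.3 FPKM in the cKO libraries, against 75.7, 76.7 and 73.6 FPKM in the YFP+ libraries. The groups did not overlap in either gene, with changes of -0.42 ± 0.08 (adjusted p = 0.0028, limma) and -0.27 ± 0.07 (0.00699). Irgm1 lost its call with median-ratio scaling (adjusted p = 0.0552), its only loss among the 11 alternatives. Irgm2 was at 9.5, 8.5 and 9.56 FPKM in the cKO libraries, against 10.8, 12.7 and 13 FPKM in the YFP+ libraries. Gbp2 was at 12.8, 16.1 and 14.7 FPKM in the cKO libraries, against 18.5, 20.0 and 22.1 FPKM in the YFP+ libraries. Gbp6 was at 17.3, 19.6 and 18.6 FPKM in the cKO libraries, against 23.3, 22.9 and 25.1 FPKM in the YFP+ libraries. All 3 were lower without overlap, by smaller margins, with -0.26 (0.0412) for Irgm2, -0.34 (0.0218) for Gbp2 and -0.23 (0.0257) for Gbp6. Their calls held in 3, 6 and 5 of the 11 alternatives, and those of Zbp1 and Isg20 in 4 each. Ifi47 (-0.01), Iigp1 (0.03) and Gbp3 (-0.12) did not pass.

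Oas3, the largest of the OAS enzymes, rose in liver cKO. It was at 26.6, 29.5 and 30.2 FPKM in the cKO libraries, against 13.5, 16.2 and 18 FPKM in the YFP+ libraries, with no overlap, and its log2 fold change was 0.93 ± 0.12 (adjusted p = 0.0023, limma). Its adjusted p was the only one under the threshold among 5 OAS members. Oas2 was at 3.49, 2.97 and 3.71 FPKM in the cKO libraries, against 2.78, 2.56 and 2.8 FPKM in the YFP+ libraries, also without overlap (0.35 ± 0.13, 0.193). Oas1a (0.03), Oasl1 (0.08) and Oasl2 (-0.11) had smaller differences that did not pass. Ddx58 was at 20.7, 21.4 and 23.3 FPKM in the cKO libraries, against 16, 17.3 and 19.2 FPKM in the YFP+ libraries, with every cKO library above every YFP+ library. It missed the threshold here (0.41 ± 0.10, 0.0568) and passed as higher with median-ratio scaling (0.0187). Parp14 was at 6.77, 6.18 and 5.62 FPKM in the cKO libraries, against 5.05, 4.76 and 4.23 FPKM in the YFP+ libraries and behaved likewise (0.45 ± 0.12, 0.0703, and 0.0444 with that scaling).

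Among members that did not pass in the liver, Isg15 was at 45.8, 51.4 and 44.9 FPKM in the cKO libraries, against 50.8, 49.2 and 48.7 FPKM in the YFP+ libraries. Ifit3 was at 80.9, 84 and 85.7 FPKM in the cKO libraries, against 83.8, 85.7 and 90.3 FPKM in the YFP+ libraries. Irf7 was at 24.7, 24.5 and 25.6 FPKM in the cKO libraries, against 23.8, 21.2 and 24.5 FPKM in the YFP+ libraries. The groups overlapped in Isg15 and Ifit3 and nearly met in Irf7, and 0 of these 3 passed, with log2 fold changes of 0.04 ± 0.08 (adjusted p = 0.593, limma), 0.06 ± 0.07 (0.635) and 0.21 ± 0.09 (0.425). Ifit1 was at 28.7, 33.6 and 29.1 FPKM in the cKO libraries, against 29.4, 28.3 and 29.5 FPKM in the YFP+ libraries. Usp18 was at 25.1, 29.5 and 30.0 FPKM in the cKO libraries, against 32.8, 32.1 and 29.9 FPKM in the YFP+ libraries. Oasl1 was at 4.6, 2.93 and 5.61 FPKM in the cKO libraries, against 4.29, 3.78 and 5.07 FPKM in the YFP+ libraries. The groups overlapped in these 3, and none of the 3 passed, with adjusted p of 0.657, 0.248 and 0.935.

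Xaf1 in the liver was at 18.5, 26 and 23.3 FPKM in the cKO libraries, against 26.7, 25.5 and 24.6 FPKM in the YFP+ libraries. Parp9 was at 14.7, 14 and 11.8 FPKM in the cKO libraries, against 11.8, 12.9 and 16.1 FPKM in the YFP+ libraries. Neither passed (-0.08 ± 0.13, adjusted p = 0.302 for Xaf1 and 0.10 ± 0.14, 0.976 for Parp9, limma), and the groups overlapped in both. Ifi47 was at 141, 133 and 140.5 FPKM in the cKO libraries, against 158, 151 and 140.5 FPKM in the YFP+ libraries. Gbp3 was at 9.42, 8.01 and 7.69 FPKM in the cKO libraries, against 11, 9.12 and 9.9 FPKM in the YFP+ libraries. In Ifi47 and Gbp3 the YFP+ libraries reached higher, with overlap. Mx2 was at 1.15, 0.746 and 0.64 FPKM in the cKO libraries, against 1.19, 0.88 and 0.635 FPKM in the YFP+ libraries. Iigp1 was at 1.0, 1.07 and 0.808 FPKM in the cKO libraries, against 0.905, 1.13 and 1.16 FPKM in the YFP+ libraries. The groups overlapped in both of these low genes. Ifi44 was at 0.921, 1.59 and 0.851 FPKM in the cKO libraries, against 2.03, 1.61 and 1.28 FPKM in the YFP+ libraries. Oasl2 was at 5.24, 5.59 and 5.95 FPKM in the cKO libraries, against 6.14, 5.97 and 8.08 FPKM in the YFP+ libraries. Ifi44 overlapped between the groups, while every cKO library of Oasl2 was below every YFP+ library, by a margin that did not pass (0.262, limma).

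The remaining liver members did not pass either. Stat2 spanned 5.93 to 7.57 FPKM in cKO and 4.35 to 7.57 FPKM in YFP+ libraries, and Ifih1 spanned 1.66 to 2.04 FPKM in cKO and 1.64 to 2.38 FPKM in YFP+ libraries. Dhx58 spanned 7.3 to 9.03 FPKM in cKO and 8.82 to 10.5 FPKM in YFP+ libraries. Ifit2 spanned 3.81 to 4.4 FPKM in cKO and 3.07 to 4.36 FPKM in YFP+ libraries, Mx1 spanned 3.94 to 5.56 FPKM in cKO and 3.02 to 4.12 FPKM in YFP+ libraries and Oas1a spanned 20.1 to 21.4 FPKM in cKO and 20.6 to 24.4 FPKM in YFP+ libraries. Rsad2 spanned 6.16 to 7.22 FPKM in cKO and 4.12 to 6.36 FPKM in YFP+ libraries, Bst2 spanned 87.9 to 99.1 FPKM in cKO and 96.6 to 129 FPKM in YFP+ libraries and Ifi35 spanned 76.8 to 85.4 FPKM in cKO and 79.5 to 87.2 FPKM in YFP+ libraries. Their log2 fold changes lay between -0.11 and 0.51 (adjusted p from 0.0943 to 0.729, limma).

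**Figure D4:**
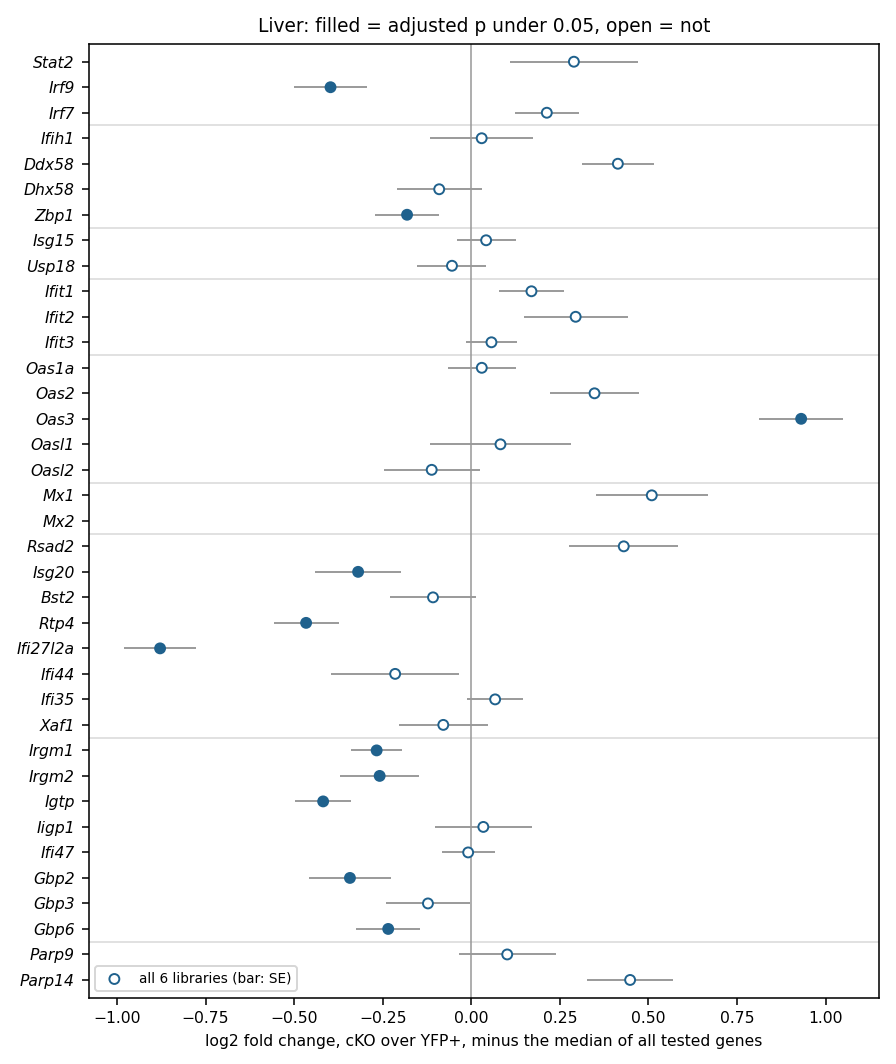
Log2 fold change of each member in the liver (cKO over YFP+, minus the median of all tested genes), with bars of 1 SE and filled circles for an adjusted p under 0.05. Ifi27l2a at -0.88 and Oas3 at 0.93 lie farthest from 0 on either side, and Mx2 was not tested.

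RNA of other cells moved with the liver groups. The 9 T and NKT cell markers summed to 3044 to 3077 FPKM in cKO and 3252 to 3791 FPKM in YFP+ libraries. The 6 erythroid markers summed to 9.83 to 15.0 FPKM in cKO and 641 to 742 FPKM in YFP+ libraries. The 6 DP thymocyte markers summed to 3.11 to 4.14 FPKM in cKO and 40.5 to 44.5 FPKM in YFP+, and 5 B cell markers to 1.92 to 3.34 FPKM in cKO and 10.4 to 11.7 FPKM in YFP+. The 10 myeloid markers summed to 26.8 to 31.6 FPKM in cKO and 66.2 to 89.8 FPKM in YFP+, and Lyz2 and Cd14 were the largest part of it, while Csf1r was at most 0.565 FPKM. The 7 plasmacytoid dendritic cell markers summed to 13.2 to 13.7 FPKM in cKO and 72.7 to 79.9 FPKM in YFP+, most of the difference being Ly6d, whereas Siglech was at 6.33 to 6.54 FPKM in cKO and 2.54 to 3.25 FPKM in YFP+ libraries. The 6 hepatocyte markers summed to 2.08 to 2.75 FPKM in cKO and 1.34 to 1.83 FPKM in YFP+, with Ttr, Apoc3 and Fgb at 0 in all 6 liver libraries. Of 11 tested heat shock and immediate early genes 1 was higher and 5 were lower in liver cKO, against 7.49% and 19.7% of all genes. The part of such RNA in the liver differences of the members was not tested.

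Ifng in the liver was at 34, 31.1 and 32.9 FPKM in the cKO libraries, against 59.6, 56.4 and 57.8 FPKM in the YFP+ libraries, without overlap, and fell (-0.70 ± 0.08, adjusted p = 0.000366, limma). Irf1 was at 11.9, 12.4 and 12.5 FPKM in the cKO libraries, against 25.2, 21.1 and 23.9 FPKM in the YFP+ libraries and fell as well (-0.76 ± 0.10, 0.000751). Of 64 tested genes of the 6 pathway lists 29.7% were called in the liver, 5 higher and 14 lower. That share is close to that of all genes (7.49% higher and 19.7% lower). Of 8 tested receptor and kinase genes 1 rose, the type I receptor kinase Tyk2 (0.91 ± 0.18, 0.0134), and 1 fell, Il10rb (-0.29, 0.0414), a chain shared with the lambda interferon receptor. Ifnar1 (0.24, 0.648), Ifnar2 (-0.20, 0.554) and Ifngr1 (0.04, 0.513) did not pass, and Ifngr2 was under the tested mean. Among 6 negative regulators Socs3 (-0.75, 0.0159) and Ptpn2 (-0.40, 0.0101) fell and Ptpn6 rose (0.45, 0.00775). With median-ratio scaling the calls of Il10rb and Ptpn2 were lost (adjusted p = 0.0828 and 0.0551). Myd88, an adaptor of Toll-like receptors, was the only call among 9 sensing adaptors and kinases (-0.36, 0.00463).

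Of 35 tested other interferon-induced genes 3 rose and 8 fell in liver cKO, close to the 7.49% higher and 19.7% lower of all genes. With median-ratio scaling 10 were higher and 6 lower, against 10.5% and 11% of all genes. Those that rose were Ube2l6, the enzyme that passes on ISG15 (0.93 ± 0.15, adjusted p = 0.00599, limma), the chemokine Cxcl10 (0.75 ± 0.19, 0.0389) and the DNA-binding Ifi204 (0.45 ± 0.11, 0.0493). The largest falls were those of Ifitm3 (-1.02 ± 0.12, 0.000655), Ly6a, also known as Sca-1 (-0.95 ± 0.10, 0.000354), and Ifitm2 (-0.65 ± 0.11, 0.00236). Ly6a was at 163, 167 and 164 FPKM in the cKO libraries, against 393, 345 and 299.8 FPKM in the YFP+ libraries, with every cKO library below every YFP+ library. The list's median log2 fold change was 0.21, and 24 of its 35 tested genes were above 0.

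Whether the cKO difference of a member differed between liver and thymus was tested over all 12 libraries (liver difference minus thymus difference, limma). Tissue and normalisation cannot be told apart in it, because each tissue was normalised in its own table. The fit takes 1 spread per gene for all 4 groups. The median coefficient of variation of the members was 73.8% in thymus cKO and 7.17 to 9.22% in the other groups. A call missed here does not show that the tissues were alike. With all libraries 0 of 37 members passed, and 0 had an unadjusted p under 0.05, against 9.14% of 9739 genes higher and 5.91% lower. The median over the members was 0.06, relative to the median gene (0.06). With array weights 1 of 37 passed, Ddx58 as higher, against 1483 higher and 1151 lower of 9739 genes, a smaller share than that of all genes. Without thymus cKO replicate 1, 15 of 35 (42.9%) passed with a difference above 0 (higher) and 0 below it, against 9.96% and 5.51% of all genes. The median was then 0.56. That library was singled out for its values, and leaving it out lowers the members' thymus cKO means and so raises this difference by construction. Of the 15, Isg20, Rtp4, Irgm1, Irgm2 and Zbp1 were called lower in liver cKO, and Oas3 higher. Without thymus cKO replicate 1 and rescaled as well, 10 of 35 passed as higher and 0 as lower, against 869 and 604 of 9749 genes. Of the 15, Ifit3 had the largest difference (1.24 ± 0.33, adjusted p = 0.0197), next to Isg20 (1.18 ± 0.29, 0.0149) and Ifit1 (1.01 ± 0.31, 0.036). Ddx58 had the lowest adjusted p (0.84 ± 0.13, 0.000968), and Oas3 passed too (0.75 ± 0.22, 0.0292). The other 10 were Irf7, Zbp1, Rtp4, Xaf1, Irgm1, Irgm2, Ifi47, Gbp3, Parp9 and Parp14, at 0.30 to 0.83.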

How the data were processed

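RNA of 12 libraries was analysed. Per the labels' protocols, DN thymocytes were enriched by depletion, NKT cells were sorted by FACS, total RNA was turned into cDNA with SMARTer reagents for low input, and library construction used either TruSeq or ThruPLEX, without a record of which applied to each sample. FPKM were deposited by the authors as 1 table per tissue, made with TopHat2 (version 2.8.0 as given) and Cufflinks 2.1.1 on mouse build mm9, per the submitters' processing notes. FPKM already divide by transcript length and mapped total, so abundant transcripts lower the others. Reads shared by near-identical genes (Gbp6 and Gbp10, Oas1a and Oas1g, Ifit3 and its copy) are divided by the model of Cufflinks, and such values are uncertain. Strand use is not given. All columns of values were mapped to samples through titles.

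From these values limma 3.58.1 (R 4.3.3, trend fit) was run on log2(FPKM + 1) with no covariate, for genes averaging 1 FPKM or more, per tissue and for the difference between tissues. The script was tested on simulated data. Alternatives were a pseudocount of 0.1, no filter, median-ratio scaling, array weights, a replicate block and each library left out. Members and the 6 pathway, 1 handling and 7 marker lists were chosen with earlier results of these data known. Members are named with all their values when they pass in any comparison, with or without thymus cKO replicate 1, or have 1 of the 5 largest ratios of that library to the other thymus cKO libraries. Pathway genes are named by size of change, up to 3 per list and direction, plus Ifng, Irf1 and the receptor chains. A gene that this rule names is not reported here. Others (Isg15 in the thymus, Oas2 in the liver, marker genes) were added after their values were seen. Figures were drawn with matplotlib 3.10.9.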

Additional observations from a re-analysis of the deposited data

Results flagged for a closer look

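Of 66 tested genes of the pathway lists, the cKO difference of 10 (15.2%) differed between liver and thymus in the test of that difference (limma, all 12 libraries), 5 higher and 5 lower, a share close to that of all genes (9.14% higher and 5.91% lower). On the log2 scale, liver minus thymus, it was -2.53 for Ifng (adjusted p = 0.000541), which was lower in liver cKO and higher in thymus cKO. It was -1.42 for Ly6c2 (0.00415), -1.07 for Socs3 (0.041), -0.72 for Irf1 (0.015) and -0.54 for Il10rb (0.0433). It was 0.94 for Tyk2 (0.0113), 0.64 for Ptpn6 (0.00168) and 0.31 for Ifngr1 (0.0258). The other calls were Nlrc5 at 0.88 (0.0298) and Adar at 0.68 (0.0473). If the liver descriptions rather than the titles hold, the liver part of each difference is mirrored.

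Among the interferon-stimulated members, 15 of 35 differed between the tissues without thymus cKO replicate 1, all as higher, and 0 of 37 with it. The shares of all genes were 9.96% higher and 5.51% lower without it, and 9.14% and 5.91% with it. That library was singled out for its values, and leaving it out raises the liver minus thymus difference of the members by construction. Single outlying libraries were not tested for, since every group has 3.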

How the results depend on the processing

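In the thymus the number of genes called in all, 1429 with limma as run, was 2798 with array weights, 789 with median-ratio scaling, 801 with no filter on low values and 472 to 2408 with a library left out, the highest without cKO replicate 1. Members called were 6 with array weights, 17 with scaling and cKO replicate 1 left out together, and 0 to 20 with a library left out, where cKO replicate 1 was the only library whose loss gave any. The members' thymus median ran from -0.62 to 0.35 over libraries left out. Irf7, at 0.02 with all libraries, ran from -0.62 without cKO replicate 1 to 0.54 without cKO replicate 2. In the liver, genes called in all were 2607, with 3940 under array weights and 1539 to 2640 with a library left out. The 11 members called became 15 with array weights, 4 higher and 11 lower, and 7 with median-ratio scaling. They became 6 to 10 with a library left out, with 6 without YFP+ replicate 2 and 6 without cKO replicate 1. The liver median of the members was -0.087 with no filter and -0.042 to 0.013 with a library left out. For the difference between tissues, genes called were 1466, with 2634 under array weights and 983 to 1700 with a library left out. Members called were 1 with array weights, 10 with scaling and without thymus cKO replicate 1, and 0 to 15 with a library left out. Their median was 0.56 with scaling and without that library and -0.26 to 0.56 with a library left out. A fit with the replicate number as a block called 787 genes and 0 members in the thymus, 7 members in the liver and 0 members between tissues. Same-numbered libraries did not deviate together, with correlations of -0.05 to 0.01 in thymus pairs and -0.06 to 0.07 in liver pairs, and not every library correlated best with its own number. The libraries share only a number.

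Over single named genes and all settings, 987 values kept their side of the threshold, 81 came to pass and 138 ceased to pass. In 1 more, Irf7 passed as lower without thymus cKO replicate 1. Irf7 had not passed with all libraries, where it lay slightly above the median gene. Low members such as Mx2 and Iigp1 have low FPKM, which do not give their counting error.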
